A study of Mus musculus with 12 samples.

Results

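Three-way chromatin contacts around 11 enhancer viewpoints are described for naive J1 cells, an established line of mouse embryonic stem cells. The viewpoints were cMyc, cMyc-2, Sox2-SE, Dppa3-37kb, Klf4-distal-SE, Lefty1-2, Tdgf1-Lrrc2-SE, Dnmt3a-116kb, Elovl6-SE1, Txnip-distal-SE and Malt1, chosen by name, and all fragment pairs of their naive tables were used. They were 11 of 23 naive tables and held 134215 counts on 85518 distinct fragment pairs, of 241872 counts on 159167 pairs in the 46 tables of both states. The members held 99.7% of the naive counts. The lowest members were Malt1 with 682 and Lefty1-2 with 1053 counts, and the highest of the 12 tables outside was Dppa3-139kb with 92. Naive cells were kept in serum-free medium with 2i (inhibitors of MEK and GSK3) and leukemia inhibitory factor. Primed cells, used here for side-by-side values only, were derived from them with Fgf2 and Activin A. The study made 3 biological replicates per state, each captured with 2 pools of oligonucleotides, which gave 6 naive samples of 12. The deposited tables carry 1 column of counts per state and viewpoint and no replicate, so no value has a replicate error and no test was possible. All intervals are exact 95% intervals unless stated and cover counting error only. The assay reads DNA contacts and no RNA, so the cell state was not checked against marker genes here.

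Tri-C is a chromosome conformation capture assay that reads more than a pair of fragments from 1 ligated molecule. Crosslinked chromatin is cut with DpnII, which recognises GATC, fragments that lie close in space are ligated, and an oligonucleotide pulls down molecules that hold the viewpoint. The other fragments of the molecule from the same chromosome are its reporters, and a count here is a pair of reporters seen together with the viewpoint. Enhancers are distal sequences that raise transcription of a gene in the same chromosome, and super-enhancers (SE) are clusters of them. In embryonic stem cells such clusters lie near genes of the pluripotency network, and chromatin contacts become rarer with genomic distance.

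The viewpoint is set by the sequence of its capture oligonucleotide, and 4 of them are shown because the results below turn on them. Each has 100 nt and is given as the study lists it, with mm10 coordinates. Dppa3-37kb lies at chr6:122663539-122663638 between Dppa3 and Nanog. Sox2-SE lies at chr3:34745994-34746093. cMyc lies at chr15:61979284-61979383 and cMyc-2 at chr15:62010774-62010873, 31.5 kb farther along. None of the oligonucleotides of the 11 viewpoints holds GATC, so each falls on 1 DpnII fragment.
Dppa3-37kb: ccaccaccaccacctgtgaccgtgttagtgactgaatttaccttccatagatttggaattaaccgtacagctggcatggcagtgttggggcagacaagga
Sox2-SE: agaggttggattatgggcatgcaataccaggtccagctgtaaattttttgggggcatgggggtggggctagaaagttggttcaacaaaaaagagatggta
cMyc: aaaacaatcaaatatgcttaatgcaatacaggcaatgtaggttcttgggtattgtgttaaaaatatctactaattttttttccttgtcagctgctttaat
cMyc-2: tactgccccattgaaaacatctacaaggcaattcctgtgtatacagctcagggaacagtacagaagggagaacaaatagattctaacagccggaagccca

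How a gene start is read depends on the DpnII sites around it. The promoters of Nanog and Sox2, transcription factors of pluripotency, are shown with GATC in capitals. They were taken from RefSeq (GRCm38.p6, the assembly of mm10) and run from 250 bases before to 50 bases after the start on the + strand. The Nanog window, chr6:122707239-122707538, holds 2 sites, and the fragment with the start runs from 122707357 to 122707701. The Sox2 window, chr3:34649745-34650044, holds none, and its start lies on a fragment from 34648732 to 34650279. Of 32851 promoters of this length, 48.0% hold at least 1 GATC. The table held 9 of the 18 target genes named below.
Nanog: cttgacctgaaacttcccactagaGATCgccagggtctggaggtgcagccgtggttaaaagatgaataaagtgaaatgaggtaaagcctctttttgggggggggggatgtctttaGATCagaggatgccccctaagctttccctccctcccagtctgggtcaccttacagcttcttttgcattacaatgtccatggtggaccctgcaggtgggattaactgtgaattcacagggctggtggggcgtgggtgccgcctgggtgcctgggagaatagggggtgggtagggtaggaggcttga
Sox2: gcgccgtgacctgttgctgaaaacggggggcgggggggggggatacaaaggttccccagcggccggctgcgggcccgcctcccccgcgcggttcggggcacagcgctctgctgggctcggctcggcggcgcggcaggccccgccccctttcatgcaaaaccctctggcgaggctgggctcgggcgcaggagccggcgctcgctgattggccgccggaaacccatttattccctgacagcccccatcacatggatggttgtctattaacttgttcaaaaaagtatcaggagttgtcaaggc

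The members differed in depth and in how much of it lay next to the viewpoint. Counts ranged from 682 at Malt1 to 41081 at Dppa3-37kb, with a median of 7726, and 6 viewpoints were in pool 1 and 5 in pool 2. Pairs of directly neighbouring DpnII fragments, with at most 5 bp between them, made up 31.3% of counts at the median viewpoint. This share was lowest at Klf4-distal-SE with 26.0% (24.1 to 27.9%) and highest at Malt1 with 55.6% (51.8 to 59.3%). Such pairs can come from DNA that was not cut at the site between them, and the deposited counts do not tell this apart from religation. At Sox2-SE a single pair of fragments, 0.115 and 0.492 kb from the oligonucleotide, held 2855 of 15441 counts, or 18.5%. The largest pair of any other viewpoint held 2.02% of counts, at Elovl6-SE1.

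Both reporters lay within 200 kb of the viewpoint in 47.5% of counts at the median viewpoint. The share was highest at Sox2-SE with 62.2% and lowest at cMyc with 32.4%. Counts with both reporters over 200 kb away ranged from 17.6% at Sox2-SE to 48.4% at Malt1. The reporter nearer to the viewpoint lay at a median distance of 3.53 kb at Sox2-SE and 157 kb at Malt1, the extremes of the 11. The farther one lay at a median of 75.7 kb at Sox2-SE and 495 kb at cMyc. The single pair at Sox2-SE weighed on these values. Without it both reporters were within 200 kb in 53.6% of counts, under the 55.0% of Dppa3-37kb, and the medians became 12.5 and 129.9 kb. The farther reporter was then still nearest at Sox2-SE of all 11, each taken without its own highest pair.

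Decay with distance was measured as reporters per kb in distance bands, with each count adding both of its reporters. At Dppa3-37kb the density fell from 6.19 reporters per kb per 1000 counts at 10 to 20 kb to 1.45 at 100 to 200 kb and 0.0383 at 0.5 to 1 Mb. At Sox2-SE the same bands gave 5.30, 0.522 and 0.139. At cMyc they gave 4.04, 1.08 and 0.240, so that cMyc was the sparsest at 10 to 20 kb and the densest at 0.5 to 1 Mb. The fall was not smooth everywhere. At Dppa3-37kb the density rose again to 0.0514 at 1 to 2 Mb, and at Elovl6-SE1 it went from 0.0339 to 0.0452 between the same bands. Tdgf1-Lrrc2-SE rose from 0.0261 at 1 to 2 Mb to 0.0325 at 2 to 5 Mb. Txnip-distal-SE rose from 0.0099 at 2 to 5 Mb to 0.0134 at 5 to 10 Mb. Malt1 had 9.75 within 10 kb and 9.90 at 10 to 20 kb. At Dppa3-37kb the steepest step lay between 100 to 200 kb and 200 to 500 kb, where the density fell from 1.45 to 0.180.

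The slope of log10 density on log10 distance, fitted over the 5 bands from 20 kb to 1 Mb, had a median of -1.10 over the 11 viewpoints. Its standard error is the scatter of the bands around the line. The steepest slopes were -1.58 ± 0.227 (SE) at Dppa3-37kb and -1.55 ± 0.0852 at Elovl6-SE1, which differ by less than the larger of these errors. The shallowest was -0.62 ± 0.105 at cMyc, followed by -0.87 ± 0.119 at Tdgf1-Lrrc2-SE. cMyc-2, 31.5 kb from cMyc, had a slope of -1.10 ± 0.0497. The other 6 slopes lay between -1.22 and -0.90, and those next to each other in this order differed by less than the larger of their standard errors. With reporters counted per distinct DpnII fragment seen in place of per kb, the median became -0.71, Malt1 became the shallowest with -0.14 and cMyc was the fourth from the shallow end. Fitted from 20 to 200 kb only, the order changed as well. Dppa3-37kb then had -0.77, the second shallowest. Tdgf1-Lrrc2-SE and Sox2-SE had -1.18 each, the steepest after Elovl6-SE1. Elovl6-SE1 was the steepest with -1.40, and cMyc the shallowest with -0.29. Dnmt3a-116kb starts at 3.69 Mb of its chromosome, and its lower side was counted only from the lowest fragment of any table.

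The primed tables of the same viewpoints had a median slope of -0.99, and the naive slope was the steeper of the pair at 7 of 11 viewpoints. At cMyc-2 the slopes were -1.10 ± 0.0497 in naive and -0.74 ± 0.0622 in primed cells. At cMyc they were -0.62 ± 0.105 and -0.39 ± 0.0253. At these 2 viewpoints the slopes differed by over 2 combined standard errors, and at the other 9 by less. Each fit rests on 5 bands, so these are descriptions. At Lefty1-2, Malt1, Tdgf1-Lrrc2-SE and Txnip-distal-SE the naive slope was the shallower one. With 1 table per state and viewpoint and no replicate named, a difference between cell cultures cannot be told apart from a difference between states.

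**Figure D1:**
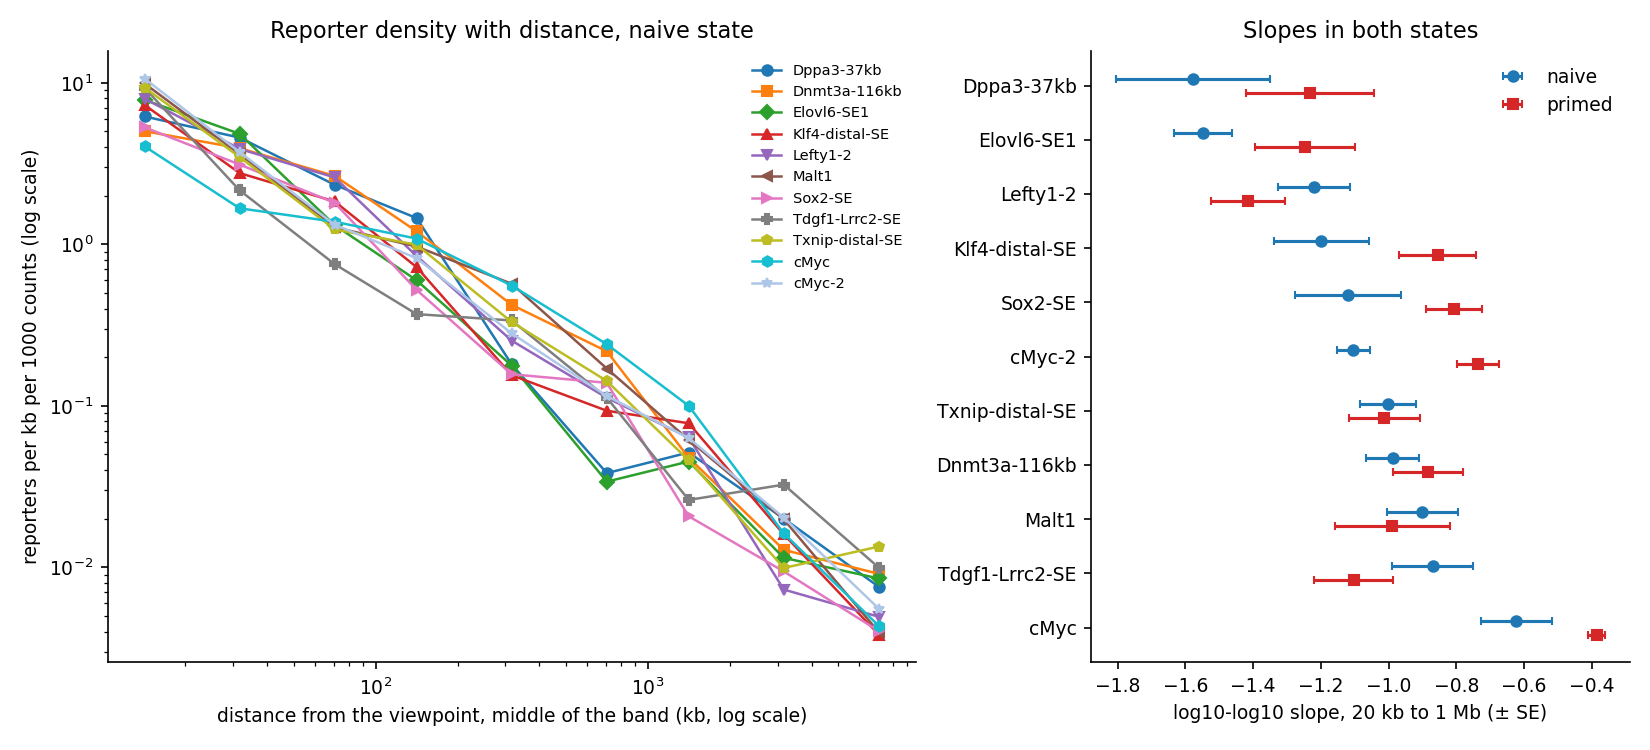
Left, reporters per kb per 1000 counts against distance from the viewpoint on log axes, 1 line per naive viewpoint and 1 point per distance band between 10 kb and 10 Mb. Right, slopes from 20 kb to 1 Mb with their standard errors for naive (circles) and primed (squares) tables. cMyc has the shallowest slope in both states, and the naive slope is the steeper one at 7 of 11 viewpoints.

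The 2 reporters of a triplet lay mostly on the same side of the viewpoint. Among counts with both reporters 10 to 200 kb away, 87.6% had both on 1 side at the median viewpoint, with a range from 85.1% at Txnip-distal-SE to 96.3% at Malt1. The side totals within each distance band would give 51.7 to 63.1% if the sides were independent. The ratio of the measured to this share was lowest at Lefty1-2 with 1.41 (1.34 to 1.47) and highest at Malt1 with 1.86 (1.79 to 1.90). At Dppa3-37kb it was 1.55 (1.54 to 1.56), from 14536 counts of which 1634 had reporters on opposite sides. In primed cells the same ratio ran from 1.35 to 1.85 over the 11 viewpoints.

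Reporters close to each other accounted for most of the same-side counts. At the median viewpoint 84.7% of them had reporters under 20 kb apart, and 53.7% were neighbouring fragments. Reporters in the same distance band were on 1 side in a median of 96.7% of counts where the band was 20 to 50 kb. In bands that do not touch, where no same-side pair can be closer than 30 kb, the share was 41.7% for 10 to 20 kb with 50 to 100 kb and 61.1% for 20 to 50 kb with 100 to 200 kb, both as medians over viewpoints. Thus the arrangement on 1 side was common for reporters near each other and was not the rule for reporters apart.

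Side was therefore also compared at matched distances, a measure chosen after the data were seen. For the 3 pairs of bands that do not touch, the odds that the farther reporter was on the lower side were compared between counts whose nearer reporter was on the lower and on the higher side (Mantel-Haenszel odds ratio with the Robins-Breslow-Greenland 95% interval). An odds ratio above 1 means that both reporters tended to share a side. It was 3.92 (2.21 to 6.96) at cMyc, from 262 counts of which 41 had both reporters on the lower and 142 both on the higher side. It was 2.15 (1.27 to 3.63) at Txnip-distal-SE, from 336 counts. Both remained above 1 with each distinct fragment pair counted once, at 3.79 (2.02 to 7.13) and 2.90 (1.63 to 5.17). At Dppa3-37kb, the deepest table, it was 0.84 (0.66 to 1.07) from 1301 counts, and at cMyc-2 1.04 (0.633 to 1.69) from 723 counts. At Dnmt3a-116kb it was 0.50 (0.244 to 1.05). The interval included 1 at 8 viewpoints, and Malt1 had 7 such counts and no odds ratio. With all counts the intervals of cMyc and cMyc-2 did not overlap, but with distinct pairs once cMyc-2 had 1.21 (0.683 to 2.16), which overlaps that of cMyc. In primed cells the odds ratio was 2.64 (1.09 to 6.38) at cMyc and 0.87 (0.494 to 1.52) at cMyc-2, and the interval lay above 1 at 5 viewpoints and included 1 at another 5. With distinct pairs counted once it lay above 1 at 2 primed viewpoints, cMyc and Tdgf1-Lrrc2-SE.

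**Figure D2:**
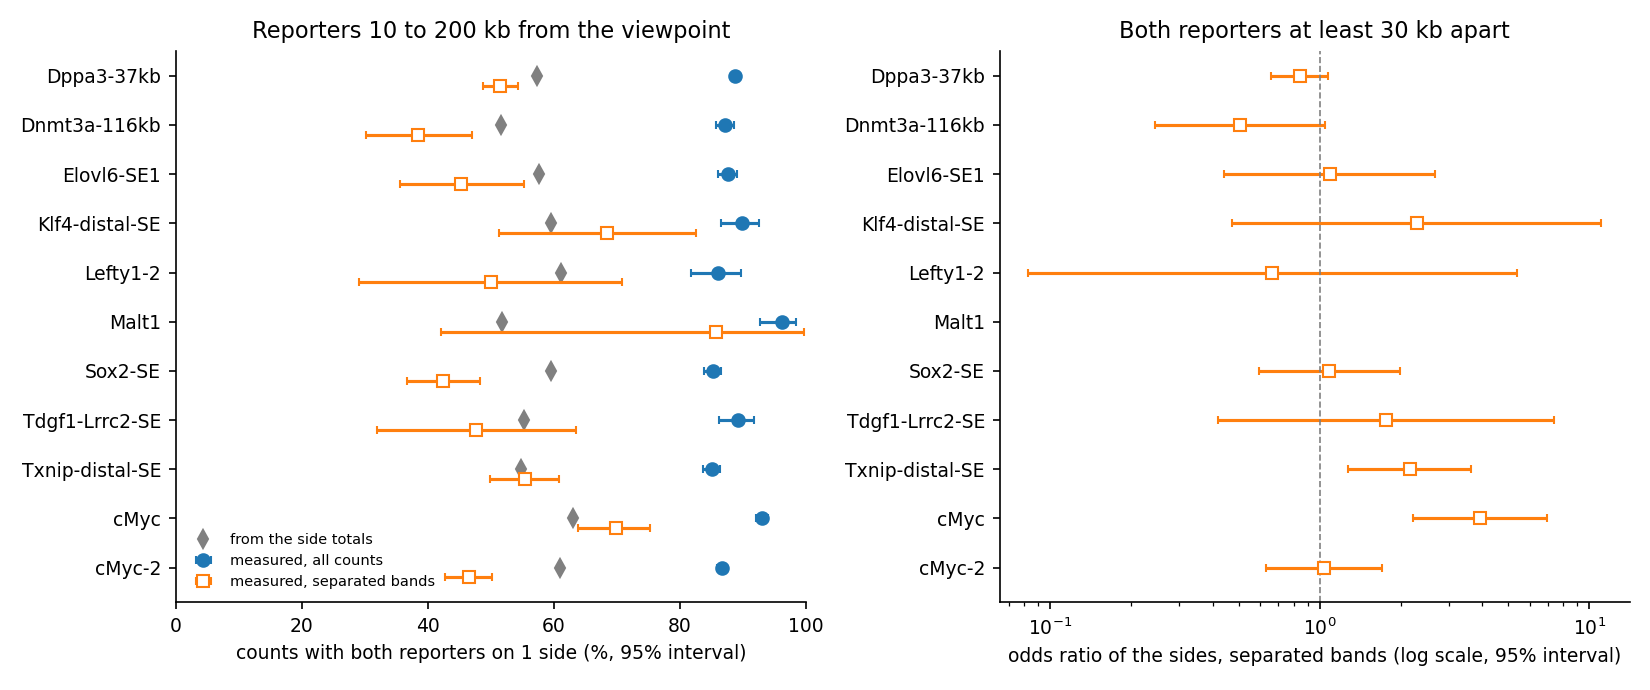
Left, share of naive counts with both reporters on 1 side of the viewpoint, for reporters 10 to 200 kb away (filled circles), the share given by the side totals (diamonds), and the measured share over 3 pairs of distance bands that do not touch (open squares). Right, odds ratio of the sides over those band pairs on a log axis, with 95% intervals for counting error; only cMyc and Txnip-distal-SE lie above 1 with their whole interval, and Malt1 has none.

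Far reporters were then asked where their companion lay. Counts with a reporter over 200 kb from the viewpoint made up 52.5% of counts at the median viewpoint and 67.6% at cMyc. The companion lay within 50 kb of the viewpoint in 29.3% of them at the median viewpoint. This share was highest at Sox2-SE with 44.1% (42.8 to 45.4%) and lowest at Malt1 with 10.5% (7.69 to 13.96%). The companion lay within 50 kb of the far reporter in a median of 39.4% of counts, from 29.4% at Sox2-SE to 68.4% at Malt1. The remaining counts, 21.1 to 39.4%, had their companion near neither. A far reporter was more often joined by its own surroundings than by those of the viewpoint at 9 of the 11 viewpoints, the exceptions being Sox2-SE and Klf4-distal-SE.

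That order turned when neighbouring fragments were left out, an alternative added after the data were seen. Neighbouring fragments were 61.3% of the counts with a companion near the far reporter at the median viewpoint. Without them, the companion lay within 50 kb of the viewpoint in a median of 39.4% and within 50 kb of the far reporter in 20.9%. Sox2-SE stayed the highest near the viewpoint with 53.7% (52.3 to 55.1%). Malt1 stayed the highest near the far reporter with 34.0% (27.3 to 41.2%) and was the only viewpoint where that share exceeded the one near the viewpoint. Still without neighbouring fragments, the companion near the viewpoint was less frequent for farther reporters at cMyc, with 40.99% (38.9 to 43.1%) at 0.2 to 0.5 Mb and 27.1% (25.2 to 28.9%) over 5 Mb. At Sox2-SE it was 58.6% (54.9 to 62.2%) and 49.5% (47.3 to 51.7%). Primed tables gave a median of 26.9% near the viewpoint and 38.8% near the far reporter with all pairs.

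**Figure D3:**
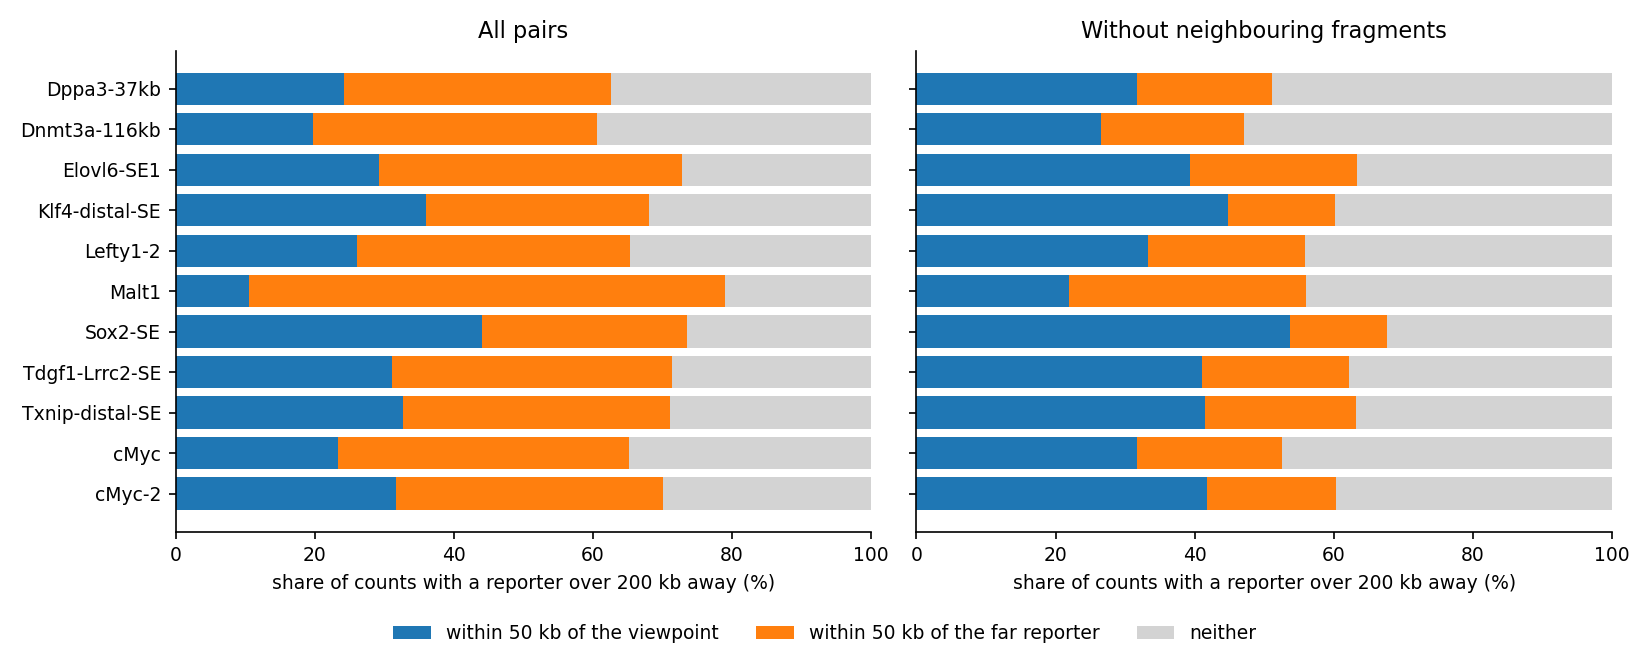
Of naive counts with a reporter over 200 kb away, the share (percent) whose other reporter lies within 50 kb of the viewpoint, within 50 kb of the far reporter, or near neither, per viewpoint. Left, all pairs; right, without pairs of neighbouring fragments. The part near the far reporter has a median of 39.4% on the left and 20.9% on the right.

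Reporters at the genes were counted in 10 kb bins within 200 kb of the viewpoint, without the bin of the viewpoint. Each bin was set against the mean of the other bins within 2 bins of its distance on both sides. Over all 433 bins whose mean was at least 5, 43.2% were above that mean and the median ratio was 0.84. Of the 20 combinations of target gene and viewpoint, 19 had a bin of their own and 13 of these were above the mean. Their median ratio was 1.46. Among the other protein-coding genes starting within 200 kb, 18 of 42 were above the mean with a median ratio of 0.90. Since the 2 sides of a viewpoint can differ as a whole, each gene bin was also set against the mean of the bins within 2 bins of it on its own side, an alternative added after the data were seen. On that measure 13 of 19 targets were above 1 too, but their median ratio was 1.06, against 0.91 over 424 bins of which 44.6% were above 1. A bin next to the viewpoint is set mostly against bins farther out, where reporters are fewer, and 16 of all 22 such bins were above the mean. Lefty2, Lrrc2 and Myc from cMyc lie in such bins, so their ratios do not compare equal distances. Without these bins, also left out after the data were seen, 10 of 16 targets were above the mean of both sides with a median ratio of 1.24, against 41.6% of 411 bins and a median of 0.80. Against their own side, 10 of these 16 were above 1 with a median of 1.05, against 42.0% of 402 bins and a median of 0.87. The target list was drawn up from the names of the viewpoints and the genes around them, with earlier results of these data known. The intervals below take reporters as independent, although the 2 reporters of a count are not, so they are too narrow.

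The pluripotency factors Sox2 and Klf4 had the highest ratios of the target genes over 20 kb away in these 10 kb bins, an order that changed under other settings. The Sox2 start, 96.0 kb below Sox2-SE, lay in a bin with 567 of 10454 reporters in the window, or 5.42% (5.00 to 5.88%). The bin at the same distance on the other side had 26 reporters, and the ratio to the same-distance mean of 179 was 3.17 (2.92 to 3.44). The start lies at 34649995, at the upper edge of its bin, and the next bin with the rest of the gene had 482 reporters. In a 5 kb window centred on the start the Sox2 ratio was 1.87, and with each distinct pair once it was 2.77. Reporters at Sox2-SE were denser on the side of Sox2 as a whole, with 2411 on the lower and 379 on the higher side at 50 to 100 kb. Against the bins of its own side the Sox2 ratio was 1.62 (1.49 to 1.75). The Klf4 start, 57.0 kb above Klf4-distal-SE, had 109 reporters against 28 on the other side and a mean of 40.7, a ratio of 2.68 (2.21 to 3.21). With each distinct pair once the Klf4 ratio was 1.92, and in the 5 kb window it was 3.69. Against its own side it was 2.52 (2.07 to 3.04). Rad23b, which encodes a DNA repair protein, starts in a bin 120.5 kb from Klf4-distal-SE on the other side, which had 51 reporters against a mean of 15.2, or 25.5 on its own side.

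At Dppa3-37kb the higher side as a whole held more reporters, 7991 against 3284 at 20 to 50 kb and 6732 against 2862 at 50 to 100 kb. The target genes were above the mean of both sides on the higher and below it on the lower one. Nanog, 43.9 kb above, had 2327 of 40933 reporters or 5.68% (5.46 to 5.91%), a ratio of 1.46 (1.40 to 1.52). Slc2a3, which encodes a glucose transporter and starts 139 kb above, had 757 reporters and a ratio of 1.18 (1.10 to 1.27). In a 5 kb window centred on its start this became 0.84. Dppa3, a maternal factor, starts 37.2 kb below and had 1112 reporters, a ratio of 0.64 (0.607 to 0.682). Gdf3, a ligand of the TGF-beta family 53.5 kb below, had 699 reporters and a ratio of 0.50 (0.464 to 0.538). Against the bins of their own sides the ratios were 1.06 (1.02 to 1.10) for Nanog, 1.01 (0.947 to 1.07) for Dppa3, 0.70 (0.651 to 0.756) for Gdf3 and 0.71 (0.657 to 0.758) for Slc2a3. The direction for Slc2a3 thus turned, and the interval of Dppa3 included 1. The bin with the most reporters outside 20 kb was neither, but one 21.4 kb above with 3808 reporters and no RefSeq gene.

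At the Myc locus the 2 viewpoints gave different values for the same genes. Myc, a transcription factor of growth and proliferation, starts 6.01 kb from cMyc in the bin next to it, which had 3270 of 12358 reporters and no comparison at equal distance. From cMyc-2 the same bin lies 25.5 kb below and had 1924 of 27593 reporters, a ratio of 0.96 (0.922 to 1.01) that became 2.30 in a 20 kb window and 0.70 (0.667 to 0.730) against its own side. Pvt1, a long non-coding RNA gene, had 407 reporters and a ratio of 1.70 (1.54 to 1.87) from cMyc at 58.7 kb. The higher side of cMyc held 1821 reporters against 530 at 50 to 100 kb, and against its own side Pvt1 had a ratio of 1.08 (0.974 to 1.19). From cMyc-2, at 27.2 kb, it had 1433 reporters and a ratio of 0.58 (0.548 to 0.607), which became 1.13 in a 20 kb window centred on the start and 0.93 (0.885 to 0.982) against its own side. The highest ratio outside 20 kb was found in the same bin from both viewpoints, chr15:62150001-62160000 inside Pvt1. It had 375 reporters and a ratio of 3.30 from cMyc, or 2.04 against its own side, and 595 reporters and a ratio of 3.49 from cMyc-2, or 1.82 against its own side.

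The remaining targets were spread over both sides of 1. Txnip, a thioredoxin-binding protein that limits glucose uptake, starts 121 kb from Txnip-distal-SE and had 287 reporters against 33 on the other side, a ratio of 2.20 (1.96 to 2.47), or 3.96 in the 5 kb window. At 100 to 200 kb the side of Txnip held 1727 reporters against 417, and against that side the ratio was 1.24 (1.10 to 1.39). A bin 174 kb away with no protein-coding gene had a higher ratio there, 3.29, or 2.32 against its own side. Lefty1, a secreted inhibitor of Nodal signalling, had 62 reporters 46.1 kb from Lefty1-2 and a ratio of 1.74 (1.35 to 2.22), or 1.06 (0.809 to 1.35) against its own side. Its relative Lefty2 starts 4.23 kb from that viewpoint in the next bin, with 174 reporters. Next to the Lefty1 bin, the one with the start of Tmem63a, which encodes a membrane channel, had 91 reporters and a ratio of 2.83, or 1.65 (1.33 to 2.02) against its own side. Elovl6, a fatty acid elongase, had 798 reporters at 19.6 kb and a ratio of 1.29 (1.21 to 1.38), but the bin on the other side had 792. Its ratio in the 5 kb window was 2.28. Malt1, a protease of immune signalling, had 69 reporters and a ratio of 1.88 (1.48 to 2.34), which was 1.24 with each distinct pair once. Alpk2, a kinase gene on its other side, had 22 reporters and a ratio of 0.51 that became 0.81 with each distinct pair once. Dnmt3a, a DNA methyltransferase, had 109 reporters at 109 kb, and its ratio of 1.17 (0.958 to 1.40) did not differ from 1 beyond counting error. That ratio was 1.64 in the 5 kb and 0.87 in the 20 kb window. Dtnb, in which Dnmt3a-116kb lies, had 56 reporters in its start bin and a ratio of 0.58 (0.438 to 0.750). Tdgf1, a co-receptor of Nodal, starts in the bin of its viewpoint and has no value, and Lrrc2, which encodes a leucine-rich repeat protein, had 1122 of 2798 reporters in the next bin.

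**Figure D4:**
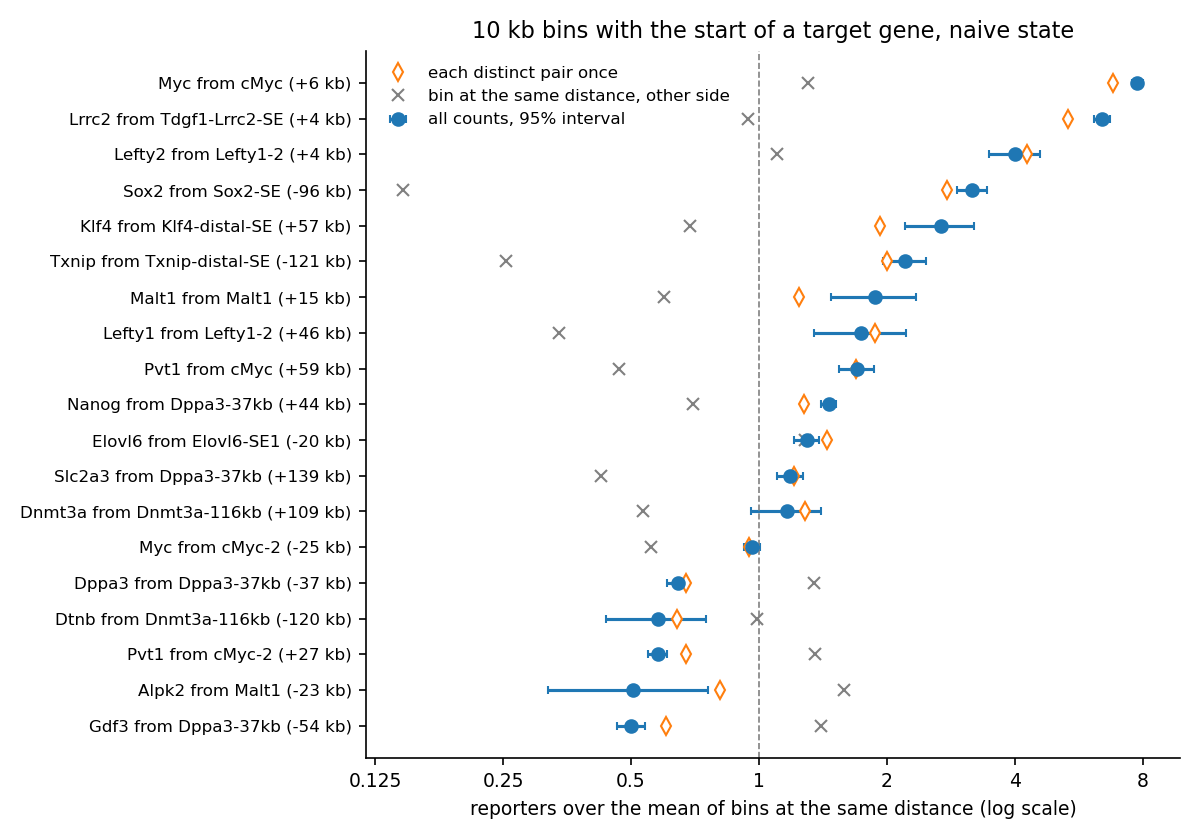
Reporters in the 10 kb bin with the start of each target gene over the mean of bins at the same distance (log axis), naive state, with the signed distance of the start from the viewpoint. Circles are all counts with 95% intervals for counting error, open diamonds count each distinct pair once, and crosses are the bin at the same distance on the other side. Lefty2, Lrrc2 and Myc from cMyc lie in the bin next to the viewpoint and are set mostly against bins farther out. Sox2 has a ratio of 3.17 and its cross is the lowest of all, while Gdf3 and Dppa3 lie below 1.

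Some bins hold another capture oligonucleotide of the study, always of the other pool. From Dppa3-37kb the bin of Dppa3-139kb, 101 kb away and overlapped by Slc2a3, had 1962 reporters and a ratio of 2.51 (2.40 to 2.62), or 1.49 (1.42 to 1.56) against its own side. From Lefty1-2 the bin of Lefty1 (the viewpoint), 36.0 kb away, had 113 reporters, the most outside 20 kb, and a ratio of 2.86 (2.35 to 3.43), or 1.61 (1.33 to 1.94) against its own side. The bin of cMyc-2 had 314 reporters from cMyc and a ratio of 1.00 (0.893 to 1.12), or 0.65 (0.580 to 0.725) against its own side. In the reverse direction the bin of cMyc had 585 reporters from cMyc-2 and a ratio of 0.50 (0.460 to 0.542), or 0.42 (0.386 to 0.455) against its own side. From Dnmt3a-116kb the bin of Dnmt3a-550kb, 665 kb above, had 23 reporters. At 0.5 to 1 Mb its side held 911 reporters against 93 on the other side. A mean over both sides does not compare like sides there, so no ratio is given. These intervals are Poisson intervals of the reporter count.

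Pairs of bins were compared with the count that both bins' totals and their separation would give, within the same or opposite sides. Because a pair adds to the totals of its own bins, this ratio understates the excess of a bin seen mainly in 1 pair. Of 752 pairs with an expected count of at least 5, 25 were at least 2-fold above it, or 3.32%, and 74 at most 0.5 of it, or 9.84%. The tested pairs were unevenly spread, with 287 at Dppa3-37kb, 146 at cMyc-2, 87 at cMyc, 77 at Sox2-SE and 2 at Malt1. Dppa3-37kb had 9 of the 25, Txnip-distal-SE and cMyc-2 5 each, cMyc 3, Dnmt3a-116kb 2 and Sox2-SE 1, while no pair reached 2-fold at the other 5 viewpoints. Of the 25, 12 joined touching bins and 7 joined bins on opposite sides. Of 217 tested pairs with the start of a protein-coding gene in 1 bin 10 were among the 25, of 512 with no start 15, and of 23 with starts in both bins 0.

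Repeated fragment pairs weighed on these calls. With each distinct pair counted once, 9 pairs were 2-fold above expectation and 6 of the 25 were among them. All 6 remained without neighbouring fragments too, and all joined touching bins. At Txnip-distal-SE the bin with the Txnip start and the next one, 124 and 114 kb below, had 28 counts against 10.7 expected, a ratio of 2.62 (1.74 to 3.79). There the pair at Polr3c and Rnf115, 36.1 and 46.1 kb above, had 34 counts against 14.2. In Pvt1 the bins chr15:62120001-62130000 and chr15:62130001-62140000 were called from both Myc viewpoints. They had 25 counts against 10.6 from cMyc, a ratio of 2.36 (1.53 to 3.48), and 31 against 9.98 from cMyc-2, a ratio of 3.11 (2.11 to 4.41). The other 2 were at cMyc-2, at 104 and 114 kb with 41 counts against 15.3, and at 154 and 164 kb with 23 against 6.50. With 1 more bin left out beside the viewpoint, 1 of these 6 was still called.

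Pairs of separated bins differed widely in how many fragment pairs lay behind them. At Sox2-SE the only call, between 141 kb below and 19.0 kb above, rested on 2 distinct fragment pairs with 20 counts in all against 5.31 expected. The call of cMyc between 45.7 and 116 kb had 18 counts, of which 13 were 1 pair. At Dnmt3a-116kb the bins 67.1 and 37.1 kb below, both in Dtnb, had 21 counts on 10 distinct pairs against 6.23, a ratio of 3.37 (2.09 to 5.16). At Dppa3-37kb the bins 81.4 and 101 kb above, both overlapped by Slc2a3, had 73 counts on 59 distinct pairs against 35.4, a ratio of 2.06 (1.62 to 2.60). This one had the most distinct pairs of the 25. Next came the bins 13.9 kb below and 26.1 kb above Txnip-distal-SE, with 29 counts on 25 distinct pairs against 13.7, a ratio of 2.12 (1.42 to 3.05).

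The most frequent pair was not always the one farthest above expectation. Among tested pairs with both bins at least 20 kb away, it was the same pair at Dnmt3a-116kb and at Klf4-distal-SE. At Dppa3-37kb the pair with the highest count at least 20 kb away joined the Nanog start bin with the next bin of the gene. It had 124 counts on 60 distinct pairs against 100.3 expected, a ratio of 1.24 (1.03 to 1.47). At Sox2-SE the highest pair, 91.04 and 81.04 kb below, had 46 counts against 28.2, a ratio of 1.63 (1.196 to 2.18), of which 16 were 1 fragment pair. The Sox2 start bin with its neighbour in the gene had 10 counts against 20.5, a ratio of 0.49 (0.234 to 0.899). The Sox2 start bin was seen most with the bin next to the viewpoint on the other side, with 33 counts against 23.0 and a ratio of 1.44 (0.990 to 2.02). The Klf4 start bin with the bin before it had 6 counts against 5.79, which this depth cannot tell apart.

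**Figure D5:**
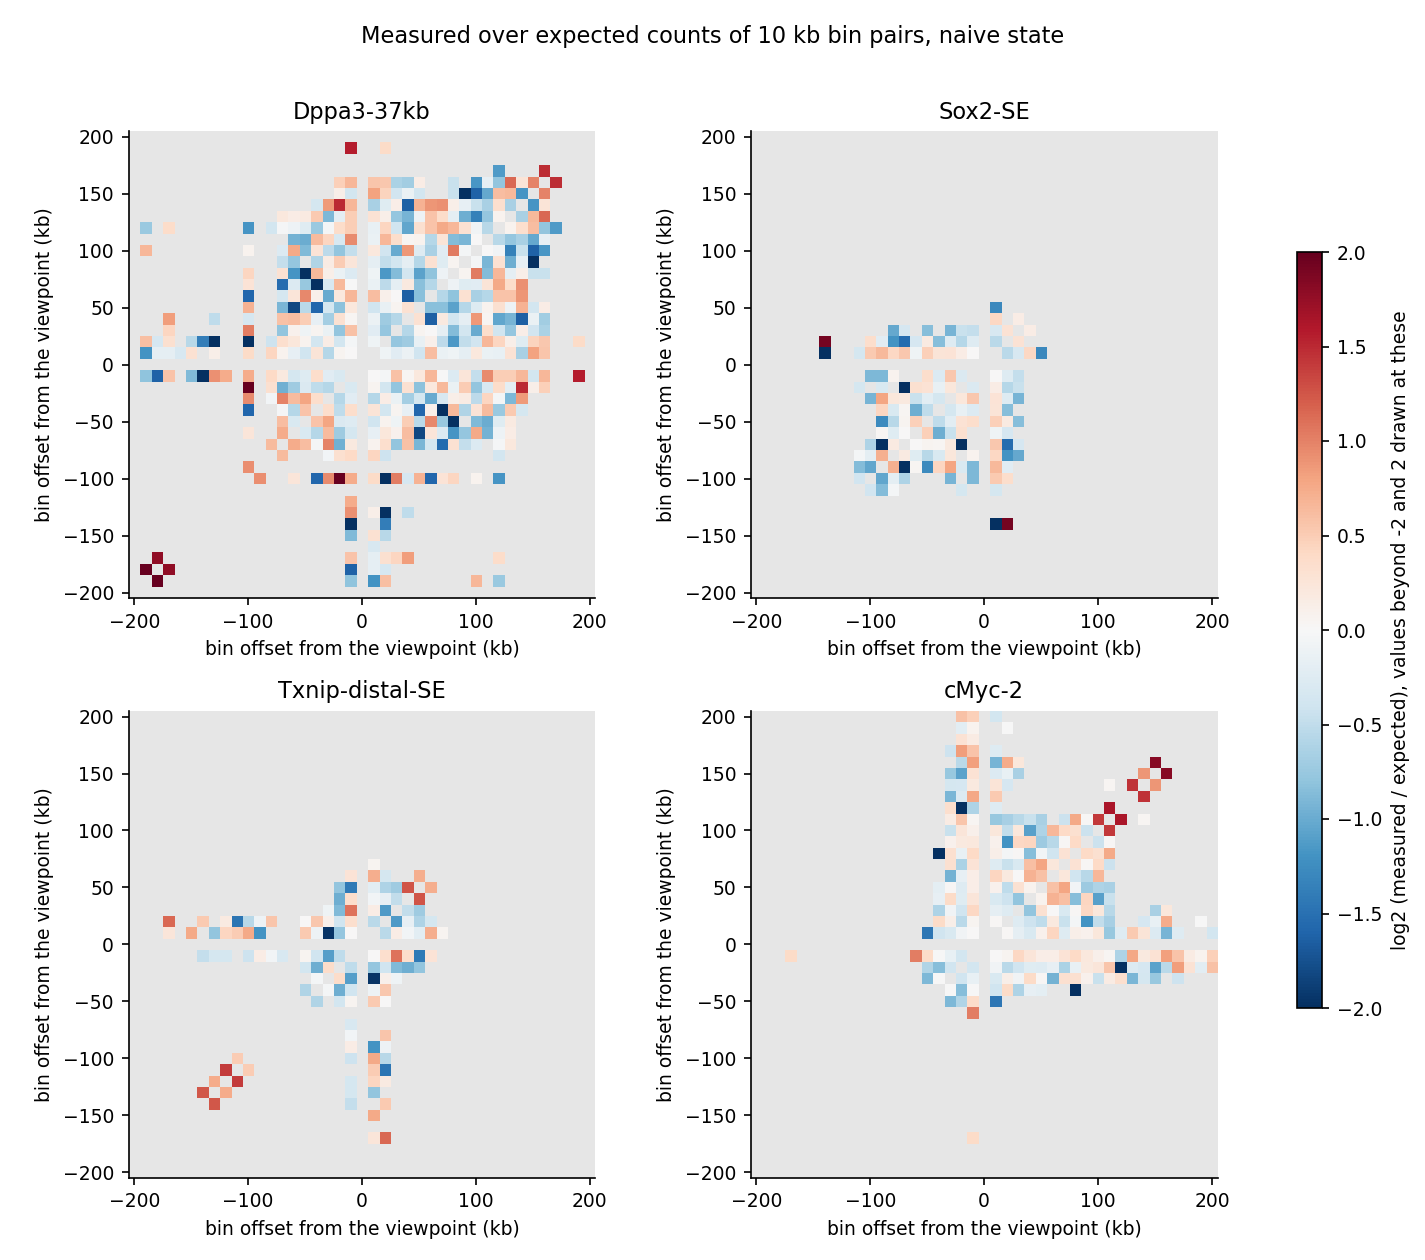
Measured over expected counts of 10 kb bin pairs within 200 kb of 4 naive viewpoints, as log2 ratios (values beyond -2 and 2 drawn at these); both axes count bins of 10 kb from the bin of the viewpoint, in kb, which can differ by up to 5 kb from distances in the text, and grey marks pairs with an expected count under 5 the bin of the viewpoint and pairs within 1 bin. Red squares beside the diagonal at 104 to 164 kb from cMyc-2 and at 124 and 114 kb below Txnip-distal-SE are calls of touching bins.

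The triplet of cMyc, cMyc-2 and another place was read from both ends in separate captures. From cMyc, 122 counts held the bin of cMyc-2 and another reporter in 1 of the 35 bins within 200 kb of both. From cMyc-2, 178 counts held the bin of cMyc. The third reporter lay between the viewpoints in 37.7% (29.1 to 46.9%) of counts from cMyc and 47.2% (39.7 to 54.8%) from cMyc-2, and these intervals overlap. It lay above both in 56.6% (47.3 to 65.5%) and 39.9% (32.6 to 47.5%). The Myc start bin held the third reporter in 25.4% (17.96 to 34.1%) from cMyc and 16.3% (11.2 to 22.6%) from cMyc-2. Over the 35 bins the third reporters from the 2 ends had a Pearson r of 0.717 on log2(count + 1) and a Spearman rho of 0.665. All reporters had an r of 0.836 and a rho of 0.888 over the same bins. These are descriptions across bins, which share the fall with distance and the bins' fragments.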

How the data were processed

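Naive J1 cells were analysed at 11 viewpoints. Per the study's methods, the authors cut with DpnII, captured in 2 rounds with 100 nt probes, sequenced paired ends, ran CapCruncher in capture mode against mm10, and extracted reads with 2 or more cis reporters with scripts of their own. The deposited values are whole counts of reporter fragment pairs, not normalized, with replicates taken as pooled. Not given in the sources used here were versions, the aligner, duplicate removal and the handling of reads with more than 2 reporters. Unremoved PCR duplicates would raise the count of a pair, so slopes, sides, companions, gene bins and bin pairs were also computed with distinct pairs counted once.

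Tables were assigned to states and pools by their labels. Fragments were placed by their midpoints, distances were taken from the middle of the oligonucleotide, and bins were 10 kb. Depth was 682 to 41081 counts per table. Strands of 21 gene entries came from GENCODE vM1 by symbol, and positions from RefSeq. Python 3.11.15, numpy 2.4.6, pandas 2.3.3, scipy 1.17.1 and matplotlib 3.10.9 were used. The measures were tested on simulated data. Named were the bins of target gene starts and of other capture oligonucleotides, the bin outside 20 kb with the most reporters, and the bin pairs with the highest count or ratio; bins with the highest ratio, Rad23b, Tmem63a, separated calls and calls kept under other settings were chosen after their values were seen. The members and lists were chosen with earlier results of these data known.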

Additional observations from a re-analysis of the deposited data

Results flagged for a closer look

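The naive tables of the other 12 viewpoints, which no comparison above uses, held 387 counts in all, from 5 to 92 per table. They were looked at again because they hold signal outside the 11 viewpoints described. At these depths no band, side or bin value was computed.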

How the results depend on the processing

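No paired analysis was possible because each table has 1 column of counts and names no replicate, and leaving out a replicate was not run for the same reason. The median slope of -1.10 was -0.89 when fitted from 20 to 200 kb and -0.71 per distinct fragment. The median same-side ratio of 1.52 was 1.47 with distinct pairs once, 1.56 without reporters within 20 kb, 1.38 without neighbouring fragments and 1.09 as an odds ratio over separated bands. With counts under 20 kb apart left out, which removes same-side pairs only, it was 0.996, and 6 viewpoints fell below 1: Dnmt3a-116kb 0.914, Elovl6-SE1 0.802, Sox2-SE 0.902, Tdgf1-Lrrc2-SE 0.880, Txnip-distal-SE 0.996 and cMyc-2 0.833. The median companion near the viewpoint, 29.3%, was 21.1% with near taken as 20 kb and 39.4% without neighbouring fragments, and the one near the far reporter went from 39.4% to 20.9% without them. The 25 bin pairs became 44 with 5 kb bins, 15 with 20 kb bins, 9 with distinct pairs once, 122 against the mean of the same separation, 15 with 1 more bin left out and 8 at an expected count of at least 10. Slc2a3 turned to 0.843 in a 5 kb window and to 0.706 against its own side, Dppa3 to 1.01 against its own side, and Pvt1 from cMyc-2 to 1.13 in a 20 kb window. The cause was not tested. The count of target bins above the mean was 13 of 19, and 11 of 16 in 20 kb windows, where 3 targets have no value, and 10 of 16 without the bins next to the viewpoint, and the 7 viewpoints with a steeper naive slope became 5 when fitted from 20 to 200 kb and were 7 otherwise. At Malt1, Lefty1-2 and Klf4-distal-SE, 2 to 5 testable bin pairs set the limit.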

Other observations

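Some far places recurred, and all their counts and shares here leave out neighbouring fragments. Both Myc viewpoints, captured in different pools, had their most frequent 100 kb bin over 1 Mb away at chr15:63800001-63900000, which holds genes of the gasdermin C family. This bin had 316 reporters on 106 fragments from cMyc, 4.93% of reporters over 1 Mb away, and 478 on 126 fragments from cMyc-2, 4.04%. In primed cells it had 321 reporters from cMyc, 5.97%, and 491 from cMyc-2, 4.22%. Dppa3-37kb had 586 reporters on 94 fragments in chr6:47600001-47700000, 75.0 Mb below, or 3.49%, and 115 on 55 fragments in primed cells, or 0.668%. Elovl6-SE1 had 292 reporters on 43 fragments in chr3:146400001-146500000, 16.9 Mb above, 7.94% of its reporters over 1 Mb away, and 40 in primed cells, or 2.01%. Each of these bins was chosen by its naive count, and the naive tables of these 4 viewpoints were the deeper ones, with 7726 counts against 3961 at Elovl6-SE1.

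At cMyc-2 a fragment 0.902 kb from the oligonucleotide was seen with one 37.1 Mb away in 108 naive and 55 primed counts, while the next highest such pair with both fragments over 50 kb apart had 21 naive counts. At each of the other 10 viewpoints, the pair of this kind with the highest naive count had 4 to 24 naive and 0 primed counts, and it was chosen by its naive count.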
